A study of Mus musculus with 39 samples.

Results

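Sites of the estrogen receptor (ER) in estradiol-treated cells were compared between 7438 mouse mammary cells, called parental, and 7438 cells that also carry Afos, called Afos cells. The comparison used the 3 ER lists labelled estradiol (E2), which held 7136 sites in parental cells, 6046 in replicate 1 of Afos cells and 4687 in replicate 2, or 17869 of the 110608 sites in all 24 lists of the series. Sites were found by chromatin immunoprecipitation with ER antibodies followed by sequencing (ChIP-seq), after 30 min with 100 nM E2. Other lists used for comparison were labelled untreated, or 100 nM dexamethasone, 100 nM E2 or both for 30 min. Both lines carry GFP fused to the glucocorticoid receptor (GR) and Cherry fused to ER under a tetracycline-regulated promoter, switched on by withdrawing tetracycline the day before, and Afos cells express Afos from such a promoter as well. The labels do not say whether either line is 1 clone or a pool, nor what Afos is. The parental condition had a single list, so no test between the cell lines was possible and the shares describe the lists. Whether the replicates came from separate cultures is not stated. The lists carry no read totals, and the depth behind them is therefore unknown.

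ER is a nuclear receptor that binds DNA when E2, its natural ligand, is present, and regulates genes of the mammary epithelium. GR is the related receptor for glucocorticoids such as dexamethasone (Dex). In the literature A-Fos names a dominant-negative form of Fos, which pairs with Jun proteins and keeps AP-1 (Fos and Jun dimers) from binding DNA. AP-1 is known to mark many accessible enhancers, including enhancers used by GR in mouse mammary cells.

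The lists were built differently in the 2 lines. Parental sites all spanned 150 bp, and none had a maximum tag density under 10.0 or a z-score, the authors' own score of a site, under 15.1. In Afos cells the sites were 251 bp or wider, with medians of 572 and 568 bp in replicates 1 and 2. There, highest tag densities began at 1.75 and 1.06 and z-scores at 10.5 and 11.4. The parental list covered 1070 kb of the genome and the Afos lists 3507 and 2677 kb. How density was scaled is not stated, so strength was ranked within each list only (as a percentile, 100 being the densest site), and a parental site counted as present in Afos cells when it shared at least 1 bp with a site there. The conflict between labels and list names in this series concerns the parental lists labelled untreated and Dex+E2, not these 3 lists.

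Most ER sites of parental cells were present in Afos cells, and a large minority was not called there. Of the 7136 sites, 60.5% (4315 sites; exact binomial 95% interval 59.3 to 61.6%) were present in at least 1 of the 2 Afos lists, 48.9% (3491) in both and 39.5% (2821) in neither. Replicate 1 held 57.9% of the sites (4134) and replicate 2 held 51.5% (3672), a mean of 54.7 ± 4.58% (SD, n = 2). The lists disagreed on few sites, with 643 present in replicate 1 only and 181 in replicate 2 only. Sites present in both lists had a median highest tag density of 23.5 in parental cells, against 13.8 for sites in neither. All intervals cover counting error only.

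Where a site was shared, both lines placed it at nearly the same position. The centre of the parental site lay a median of 21.5 bp from the centre of the Afos site in replicate 1 and 22.0 bp in replicate 2, and 97.7% and 97.8% of shared parental sites lay wholly inside the Afos site. Of the 3994 Afos sites shared in replicate 1, 3857 held a single parental site and at most 3 were held by any. Of the 2821 sites in neither Afos list, only 164 (5.81%) lay within 1 kb of an Afos ER site, and 746 (26.4%) lay more than 100 kb from one. Most absent sites thus had no Afos ER site close by.

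Presence in Afos cells rose steadily with the strength of the site in parental cells. Sites were ranked by highest tag density and cut into 10 classes of 713 or 714. In the weakest class, with densities up to 11.01, 32.7% of sites were present in replicate 1 and 23.1% in replicate 2. In the fifth class, from 14.99 to 17.1, the shares were 52.0% and 40.9%. In the eighth, from 24.0 to 31.0, they were 71.1% and 68.6%, and in the strongest, from 45.4 to 374, they were 95.8% and 95.5%. The strongest class exceeded the weakest by 67.7 ± 6.55 percentage points (SD, n = 2), far more than the spread between the replicate lists. The 2 lists differed more among weak sites. In the 3 strongest classes each replicate's interval held the share of the other.

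**Figure D1:**
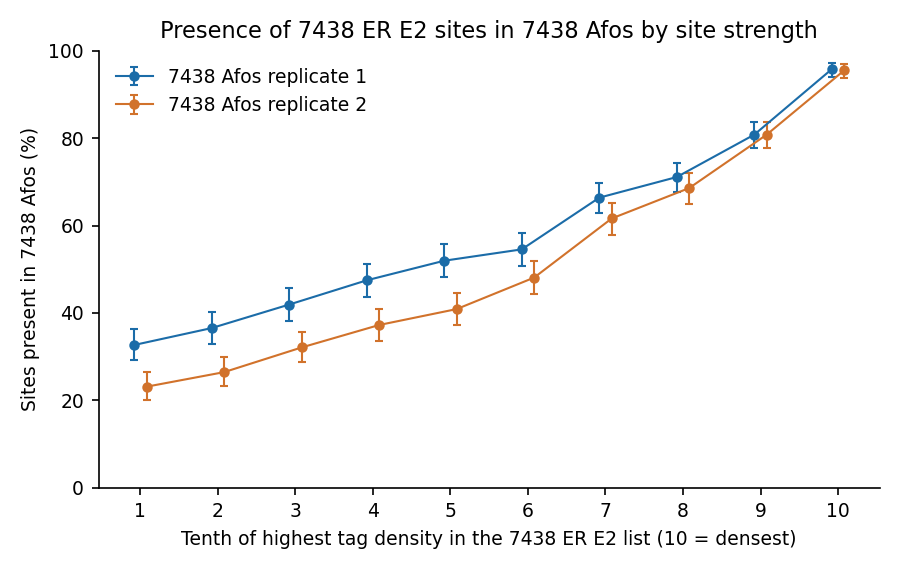
Share of parental ER E2 sites present in each Afos list, in %, for 10 classes of highest tag density in parental cells (10 is the densest). Points are shares and bars exact 95% intervals: both lists climb from under 33% in the weakest class to over 95% in the strongest, and replicate 2 lies below replicate 1 at the weak end.

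The strength of shared sites was ordered alike in both lines. Across shared sites, Spearman's rho between the highest tag density in parental cells and in Afos cells was 0.61 in replicate 1 (4134 sites) and 0.66 in replicate 2 (3672 sites), a description across sites that are not independent and that were kept only if called. Shared sites of the weakest parental class stood at a median percentile of 37.9 and 28.7 of the 2 Afos lists, and those of the strongest at 92.2 and 91.2. The Afos sites also widened with strength, from a median of 538 bp to 742 bp in replicate 1 and from 522 bp to 726 bp in replicate 2.

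The strongest ER sites of parental cells were strong in Afos cells too. The site of highest density lay on chromosome 11 (mm9, 79592192 to 79592342), at 374 in parental cells, 336 in replicate 1 and 216 in replicate 2. It was followed by sites on chromosome 12 (16797346 to 16797496; 329 in parental cells, 147 and 110 in Afos) and chromosome 17 (34347547 to 34347697; 320, 253 and 175). A pair of chromosome 6 sites (66485018 to 66485168, and 147073654 to 147073804) had 299 and 291 in parental cells, and they held the highest and the next highest ranks of both Afos lists. Densities were 532 and 282 at the first, and 445 and 259 at the other. All 5 were also ER sites in both Dex+E2 lists of Afos cells. The chromosome 12 and chromosome 17 sites overlapped a GR site of parental cells with Dex, with GR densities of 30.2 and 217. The chromosome 12 site, which had no GR site in either Afos Dex list, stood at percentiles 99.1 and 99.3 of the Afos lists, and the other 4 at 99.9 to 100.

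The strongest ER sites of parental cells that neither Afos list held were often GR sites as well. Of the 20 sites of the strongest class in neither list, 11 (55.0%) overlapped a GR site of parental cells with Dex, against 22.0% of the 694 retained. The strongest of all lay on chromosome 15 (85404990 to 85405140), with an ER density of 90.4 in parental cells, at percentile 98.0, and a GR density of 36.1 with Dex. In Afos cells it had no ER call with E2 or with Dex+E2, while GR was called there with Dex at 25.9 and 16.4. The next, on chromosome 16 (24474948 to 24475098), had an ER density of 65.01 and a GR density of 62.8 in parental cells, and GR at 19.0 and 19.9 in Afos cells with Dex. A chromosome 6 site (145662762 to 145662912; ER 62.8, GR 35.6) had no GR call in Afos cells with Dex, and 1 of 17.5 with Dex+E2 in replicate 2. The remaining 2, both on chromosome 1 (92833820 to 92833970, and 169162012 to 169162162; ER 59.4 and 57.9), had no GR site of parental cells with Dex within 10 kb. The latter lay 0.286 kb from an Afos ER site, so a wider limit would have counted it as present.

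Presence in Afos cells was lowest where the ER site coincided with a GR site and increased with distance from GR. The distance was measured to the nearest of the 12084 sites of the parental GR list with Dex. That list held 92.1% of the 4961 sites found in both GR Dex lists of Afos cells. The other parental GR lists were not compared in this way, so the share does not check the label. Of the 1189 ER sites that overlapped a GR site, 33.1% (394 sites; 30.5 to 35.9%) were present in at least 1 Afos list, against 60.5% of all parental sites. The share was 57.1% for the 497 ER sites up to 1 kb from GR, 63.7% for the 1359 sites at 1 to 10 kb, 66.2% for the 3008 sites at 10 to 100 kb and 72.1% (69.3 to 74.8%) for the 1083 sites farther than 100 kb. The step between overlap and the nearest class was the widest. At overlapping sites the replicates gave 30.0% and 30.6%, and beyond 100 kb they gave 69.4% and 61.5%. The difference was 35.1 ± 6.03 percentage points (SD, n = 2) and had the same direction in both lists.

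**Figure D2:**
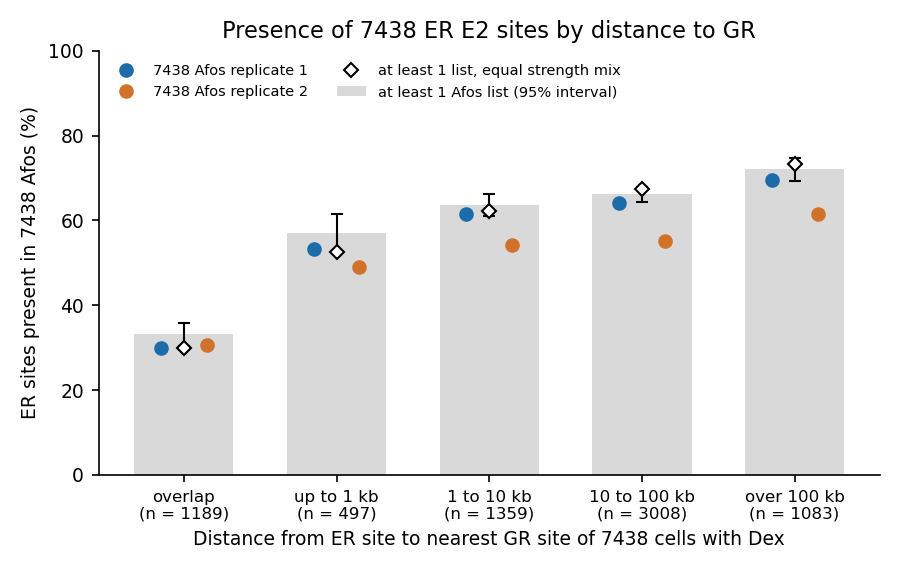
Share of parental ER E2 sites present in Afos cells, in %, by distance to the nearest GR site of parental cells with Dex. Grey bars with exact 95% intervals give presence in at least 1 Afos list, circles the 2 replicates and diamonds the share after giving each distance class the same mix of site strengths: presence is 33.1% at overlap and 72.1% beyond 100 kb.

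The ER sites at GR sites were not weaker in parental cells than the others. Their median rank was at percentile 54.0, against 48.4 for sites beyond 100 kb from GR. When each distance class was given the same mix of the 10 strength classes (an equal strength mix), presence was 30.0% at overlap and 73.4% beyond 100 kb. Within every one of the 10 strength classes, ER sites with GR were present less often than those without. In the weakest class, 5.3% of 114 sites with GR and 40.7% of 599 without were present. In the fifth class the shares were 13.8% and 61.0%, in the ninth 55.8% and 89.4%, and in the strongest 93.3% and 98.4%. The gap was widest in the fifth class, at 47.2 percentage points, and narrowest in the strongest, at 5.07.

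**Figure D3:**
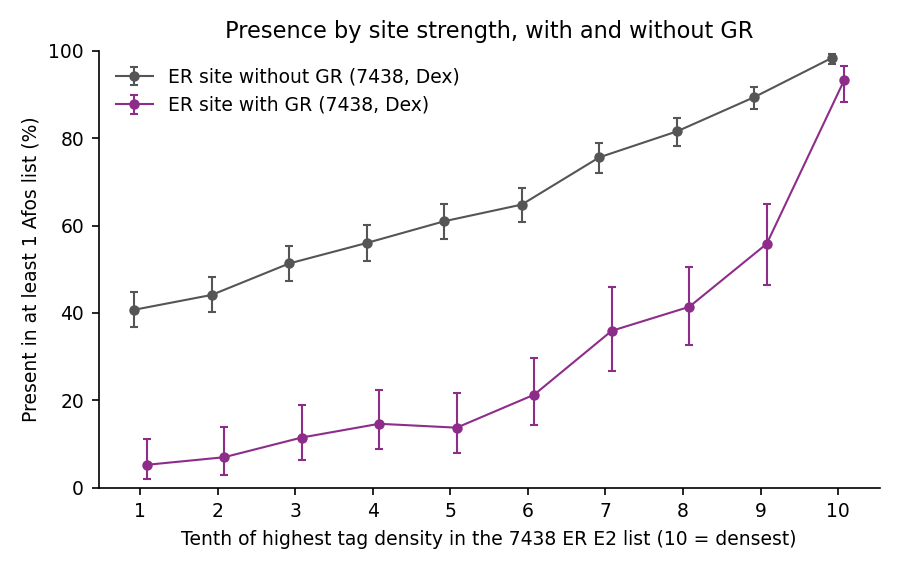
Share of parental ER E2 sites present in at least 1 Afos list, in %, by class of highest tag density in parental cells (10 is the densest), for sites that overlap a GR site of parental cells with Dex (purple) and those that do not (grey), with exact 95% intervals. Sites with GR lie below the others in all 10 classes, at 5.3% against 40.7% in the weakest.

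Among the strongest sites, most of which remained called, those with GR stood lower in the Afos ranking. In the strongest class, retained sites with GR had a median percentile of 95.8 in parental cells, and 86.6 (quartiles 72.8 and 95.4) and 86.0 (73.0 and 95.6) in the Afos lists. Retained sites without GR had 95.04 and 95.1 in parental cells, and 93.3 (84.2 and 97.1) and 92.0 (82.8 and 96.2) in Afos cells. The 2 groups overlapped widely, and both replicates put the sites with GR lower. Presence did not follow the strength of GR at the shared site. It was 33.3% where GR ranked in the lowest of 5 classes of the GR list, 23.3% in the next to highest and 38.8% in the highest.

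Whether GR still occupied the site in Afos cells went along with the presence of ER. Of the 1189 ER sites with GR in parental cells, 644 (54.2%) were GR sites in at least 1 Dex list of Afos cells, and ER was present at 40.4% of them (36.6 to 44.3%). At the 545 sites without GR in the Afos Dex lists, ER was present at 24.6% (21.0 to 28.4%). Among sites without GR in parental cells the shares were close, at 62.5% (54.7 to 69.8%) of 168 sites with GR in an Afos Dex list and 66.0% of the other 5779. The interval of the 168 held the share of the others. With Dex+E2, where GR was called in Afos cells at 905 of the 1189 sites, ER with E2 was present at 41.2% of those and at 7.4% of the other 284. That last group, which GR occupied in parental cells and in no Afos list with Dex+E2, was weaker, at median percentile 41.6 against 58.3. At an equal strength mix the shares were 34.9% for the 905 sites and 12.1% for the 284. Once sites were split by GR with Dex+E2, the shares differed little by GR in the Dex lists. ER was present at 41.0% of 632 sites with GR in both conditions and 41.8% of 273 with GR under Dex+E2 only. It was present at 1 of 12 sites with GR under Dex only and 7.35% of 272 with GR in neither. The 632 and 273 sites differed in strength, at median percentiles 54.8 and 66.5, and these shares were not given an equal strength mix.

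The opposite end was formed by ER sites that were no GR sites in parental cells with Dex but were GR sites in Afos cells when both hormones were given. There were 1972 such sites, and ER with E2 was present at 89.6% of them (88.2 to 90.9%), against 54.2% of the 3975 sites with GR in neither condition. These sites were stronger, at median percentile 69.2 against 40.8, and at an equal strength mix the shares were 84.7% and 58.9%. The difference was 37.3 percentage points in replicate 1 and 42.3 in replicate 2. GR with E2 alone was called in Afos cells at 460 of the 7136 ER sites, and 459 of those were Afos ER sites with E2. Those 460 were among the strongest sites, at median percentile 92.0. Of the other 6676, at median percentile 47.2, 57.8% were Afos ER sites with E2. These GR lists with E2 or Dex+E2 come from Afos cells in which ER had its ligand too, whereas the parental list with Dex comes from other cells without E2. Before site strength was evened out, the direction of the distance relation depended on the GR list. Measured to sites in both Afos GR Dex lists, presence was 46.1% at overlap and 63.9% beyond 100 kb. Measured to sites in both Afos GR Dex+E2 lists, it was 71.8% and 58.7%, and 62.1% and 62.9% at an equal strength mix. Measured to the 326 GR sites of parental cells with E2, presence in at least 1 Afos list was 63.8% and 61.1%, and 25.6% and 62.2% at an equal strength mix. Those 199 overlapping ER sites were among the strongest, at median percentile 93.3.

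Sites present in Afos cells with E2 were found more often than absent ones in the Afos ER lists with Dex+E2. Of the sites present in both Afos E2 lists, 75.1% and 46.4% were ER sites in the 2 Dex+E2 lists of Afos cells. Of the sites in neither, 10.2% and 3.90% were. The sites in neither were also weaker in parental cells, at median percentile 33.3 against 68.9, and strength was not evened out in this comparison. The 298 sites absent with E2 and found with Dex+E2 in at least 1 Afos list, overlapped GR in the Afos Dex+E2 lists at 86.6% and GR of parental cells with Dex at 48.0%. For the other 2523 absent sites the shares were 19.0% and 25.8%. Sites also called in the parental ER list with Dex were less often present. That list held 10149 sites, while the 2 Afos lists of ER with Dex held 61 and 41. Only 90 of the parental ER E2 sites (1.26%) lay in it. Of these, 27.8% (18.9 to 38.2%) were present in at least 1 Afos E2 list, against 60.9% of the other 7046. In the list labelled Dex+E2, whose name contradicts its label, the share was 22.7% of 181, against 61.5% of the other 6955. Without an equal strength mix, presence varied little with the distance to neighbouring ER sites. It was 61.6% for sites within 1 kb of another parental ER site and 62.9% for those over 100 kb from one. The latter were weaker, at median percentile 42.0 against 59.8.

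Presence varied over the chromosomes within narrow limits. Among the 19 chromosomes with at least 100 sites in parental cells, it ranged from 53.2% on chromosome 16 (149 of 280 sites; 47.2 to 59.2%) to 66.0% on chromosome 9 (210 of 318; 60.5 to 71.2%), around 60.5% overall. Chromosome 12 was next to the lowest, at 53.8% of 405 sites, and chromosome 2 next to the highest, at 64.5% of 563. For 16 of the 20 chromosomes the interval held the overall share. The exceptions were chromosomes 9, 12, 16 and X, each read without adjustment for the number of chromosomes. Replicate 1 lay above replicate 2 on all 20, and the order of the 19 chromosomes was similar in both (Spearman's rho 0.82, over 19 chromosomes from the same 3 lists). At an equal strength mix the range was 50.4% (chromosome 12) to 66.5% (chromosome 9).

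**Figure D4:**
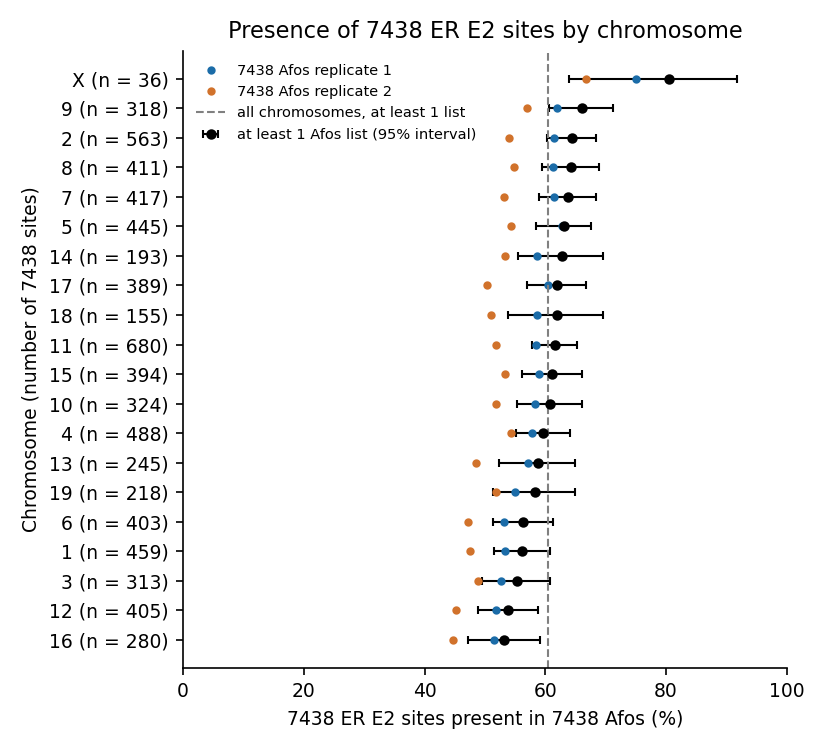
Share of parental ER E2 sites present in Afos cells, in %, by chromosome, ordered by share. Black points with exact 95% intervals give presence in at least 1 Afos list, coloured points the 2 replicates and the dashed line the share over all chromosomes, 60.5%. Chromosomes with at least 100 sites lie between 53.2% and 66.0%.

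Chromosomes on which more ER sites coincided with GR had lower presence. The share of parental ER sites at GR Dex sites ran from 11.5% on chromosome 7 to 22.4% on chromosome 13 among these 19, and Spearman's rho with presence was -0.73, a description over 19 chromosomes that share the same lists. The rho of presence with the median strength rank of a chromosome was -0.17. Within each of the 19 chromosomes ER sites with GR were present less often than those without, by 9.83 percentage points on chromosome 14 (33 sites with GR) to 46.4 on chromosome 16 (56 sites with GR).

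Chromosome X stood apart. It held 36 ER sites in parental cells, 0.504% of the list, and 77 and 61 in the Afos lists, 1.27% and 1.30%. Of the 36 sites, 29 were present in at least 1 Afos list (80.6%; 64.0 to 91.8%), although they were weaker than average, at median percentile 36.4. In the other direction, 26 of the 46 X sites found in both Afos lists (56.5%; 41.1 to 71.1%) were absent from the parental E2 list, against 21.3% over all chromosomes. The number of copies of X in each line was not measured, and its part in these counts was not tested.

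Afos lists also held ER sites that the parental list did not, and these were weak. Of the 6046 sites of replicate 1, 33.9% (2052; 32.7 to 35.1%) shared no base with a parental ER site, as did 24.4% (1143; 23.2 to 25.6%) of the 4687 sites of replicate 2. Overlapping sites of both lists, merged, gave 4271 sites found in both. Of these, 908 or 21.3% (20.04 to 22.5%) were absent from the parental E2 list. That share was 11.3% when Afos sites were held to the lower limits of the parental list, and 13.0% when a site had to be absent from all 4 parental ER lists. Absent sites stood at a median percentile of 24.2 in replicate 1 and 21.0 in replicate 2, against 64.6 and 60.6 for shared sites. They were narrower, with medians of 487 and 464 bp against 615 and 598 bp. In the weakest of 10 strength classes of the Afos lists, 80.1% and 69.0% of sites were absent from the parental E2 list. In the strongest, 0.661% (4 of 605) and 0.426% (2 of 469) were. Of the absent sites, 59.99% and 63.9% fell below the lowest density or z-score of the parental list, compared with 18.2% and 19.5% of the shared sites. As the scaling of density is not stated, these limits may not mean the same strength in both lines.

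**Figure D5:**
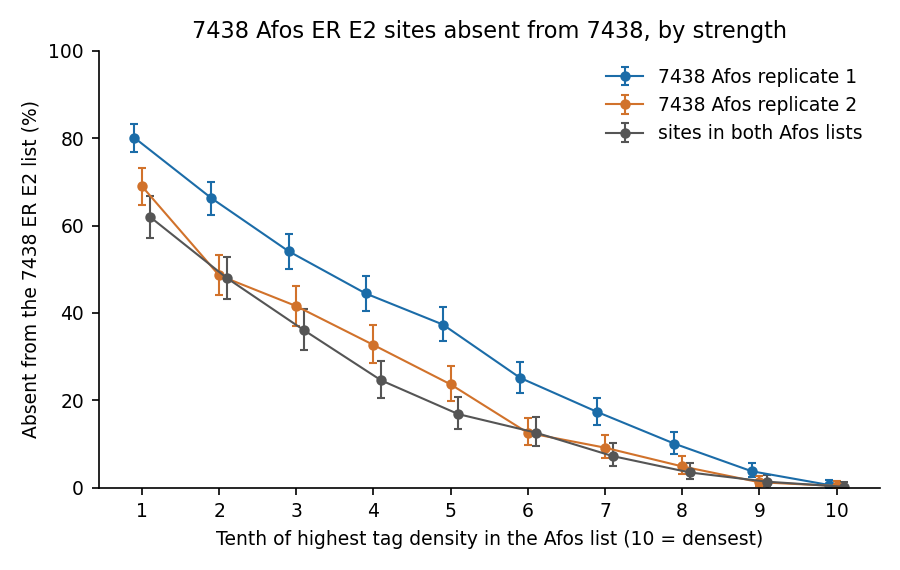
Share of Afos ER E2 sites that overlap no parental ER E2 site, in %, by class of highest tag density within the Afos list (10 is the densest), with exact 95% intervals, for each replicate and for sites in both lists. The share falls from 80.1% and 69.0% in the weakest class of the 2 lists to below 1% in the strongest.

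Absence from the parental E2 list went with poorer agreement between the replicates. Of the absent sites of replicate 1, 44.4% were found in replicate 2, against 84.2% of its shared sites. For replicate 2 the shares found in replicate 1 were 80.5% and 95.1%. The absent sites were weaker, at median percentiles 24.2 and 21.0 against 64.6 and 60.6, and these shares were not evened for strength. Of the 908 absent sites in both Afos lists, 351 (38.7%) were ER sites in another list of parental cells, nearly all of them (343) in the list labelled untreated, whose name contradicts that label. The other 557 were in none of the 4 ER lists of parental cells. Few of the 908 lay close to a site of the parental ER E2 list: 27 lay within 1 kb of one, and 381 (42.0%) lay over 100 kb away.

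ER sites present in Afos cells and absent from the parental E2 list coincided with GR less often than shared sites did, and rarely with GR under Dex alone. Among sites in both Afos lists, the absent ones were weaker, at median percentile 30.9 against 65.6. The shares that follow were not evened for strength. The parental GR list with Dex overlapped 26 of the 908 (2.86%; 1.88 to 4.17%) and 389 of the 3363 shared sites (11.6%; 10.5 to 12.7%). In the Dex lists of Afos cells, GR was present at 4.85% of absent and 9.81% of shared sites, and in the Dex+E2 lists at 26.7% and 55.8%. By distance to GR of parental cells with Dex, the share of Afos sites absent from the parental E2 list was 6.27% at overlap. It was 13.4% at 1 to 10 kb and 33.2% beyond 100 kb. ER was called with Dex+E2 at 44.7% of absent and 75.5% of shared sites. A few absent sites were called without E2 too: 12 of the 908 lay in an untreated or Dex list of ER in Afos cells, and none of the 3363 shared sites did, where 3 counts in place of 0 would give 0.0892% and the exact 95% interval reaches 0.110%.

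The absent site with the highest mean percentile over the 2 Afos lists was of that kind. It stood at percentile 86.95 in replicate 1 and 96.3 in replicate 2, so its rank rested on replicate 2. It lay on chromosome 17 (39979791 to 39985933), was 6142 bp wide and had densities of 40.9 and 59.5 with E2, but also 48.1 and 45.0 in the 2 Afos ER lists with Dex and 51.6 in untreated replicate 2. The next 4 by that mean had no ER call in untreated or Dex-treated Afos cells. They lay on chromosome 12 (112230214 to 112230913; 52.3 and 39.5), chromosome 1 (75176395 to 75177127; 57.8 and 35.0), chromosome 14 (54980305 to 54981052; 47.6 and 34.0) and chromosome 2 (145728842 to 145729584; 53.9 and 27.5). All 4 were in the parental ER list labelled untreated, with densities of 18.9 to 59.7, and none overlapped a GR site of parental cells with Dex.

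GR with its own ligand, Dex, was compared between the lines in the same way. Of 12084 GR Dex sites of parental cells, 60.5% were present in at least 1 GR Dex list of Afos cells, with 59.8% in replicate 1 and 40.3% in replicate 2. The mean for ER, 54.7 ± 4.58%, and that for GR, 50.1 ± 13.8% (SD, n = 2 each), differed by 4.64 percentage points, less than the spread of the GR lists. A two-sided exact permutation test over the lists gave p = 1, where 2 lists against 2 cannot give less than 0.333. With equal numbers, the 4000 strongest sites of each list, the difference was -10.01 percentage points. A site of the strongest class was present for GR in 99.8% and 99.1% of cases, and a site of the weakest in 26.4% and 7.78%.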

How the data were processed

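ER and GR sites were analysed in lists deposited for 24 of 39 samples, and the other 15 samples were not analysed here. Per the submitters' processing notes, the build was mm9 and CASAVA 1.8 was used. For the aligner, peak caller, control and threshold, the tool or value is not given in the sources used here. Per the file headers, the authors gave each site its highest and average tag density (a signal), a z-score (a score) and, in Afos cells, a p-value, deposited but left unused here. Coordinates are printed as deposited. Gene annotation and sequence in mm9 were not used here. Groups came from the labels.

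A pair of sites was shared if they overlapped by at least 1 bp. Presence was tabulated by 10 classes of rank of the highest density, by chromosome and by edge-to-edge distance to the nearest GR site. An equal strength mix is the mean of a group's shares in the 10 classes, weighted by the size of those classes in the whole parental list. Intervals are exact (Clopper-Pearson) 95% binomial. Sites are not replicates, so no test was made over sites. ER and GR were compared by exact permutation over lists. The named sites are the 5 of highest density of each class (for sites absent from the parental list, of highest mean percentile over both Afos lists), leaving out chromosome 18. Classes and comparisons were chosen with earlier results of these data known. The overlap code was tested on simulated data. Python 3.11.15, NumPy 2.4.6, pandas 2.3.3, SciPy 1.17.1 and matplotlib 3.10.9 were used.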

Additional observations from a re-analysis of the deposited data

How the results depend on the processing

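Alternatives changed the overlap rule, the lower limits and lengths of the lists, the Afos lists counted and the GR list. Of 77 recomputed values 38 moved by less than the replicate SD or kept their side of the test, 34 moved by more and 5 reversed. Depth is unknown, so sites under a list's threshold cannot be told from unbound ones. The scaling of density is not stated, so the parental limits may not mean the same strength in Afos lists.

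Presence in at least 1 Afos list, 60.5%, became 50.3% when Afos sites below the lowest parental density and z-score were dropped, 69.5% with the 4000 strongest sites of each list, 76.5% for parental sites at or above the median density and 48.9% in both lists. Leaving out 1 Afos replicate gave 51.5 to 57.9%. In the same order of alternatives, the strongest class exceeded the weakest by 72.8, 52.5, 42.6 and 73.4 percentage points (62.1 as reported for at least 1 list; 63.1 to 72.4 leaving out a replicate). The range over chromosomes was 11.7, 10.97, 10.2 and 11.1 points (12.8 as reported; 11.3 to 12.3 leaving out a replicate), 11.9 when a site within 500 bp counted and 16.0 at an equal strength mix.

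Presence at GR minus presence beyond 100 kb from GR was -39.0 points, and -32.3, -29.4, -32.2 and -31.3 under those 4 alternatives (-39.4 to -30.9 leaving out a replicate). It was -17.9 with GR sites of both Afos Dex lists, and reversed to 2.69 with GR sites of parental cells with E2 and to 13.1 with those of both Afos Dex+E2 lists. At an equal strength mix, presence at overlap and beyond 100 kb was 25.6% and 62.2% with the first of these lists, and 62.1% and 62.9% with the other, so neither reversal remained. Further alternatives were added after the data were examined and used the parental GR Dex list. The difference was -52.4 among ER sites without Afos GR Dex+E2 and -54.7 among those with it. It was -36.9 without the ER sites also called in the parental lists labelled Dex or Dex+E2.

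The share of sites in both Afos lists absent from the parental E2 list, 21.3%, was 11.3% at the parental limits and 30.4% with 4000 sites a list. It was 13.0% against all 4 ER lists of parental cells, and single lists gave 24.4 to 33.9%. The rank difference of absent from shared sites, -34.6 percentile points, was -24.5, -25.5 and -33.5 under these, and -40.4 to -39.6 in single lists.

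ER minus GR presence, 4.64 points, reversed to -10.01 with 4000 sites a list and to -2.76 for parental sites at or above the median density, and was -1.90 to 11.2 leaving out a replicate number. The cause was not tested. With same-numbered lists as pairs (replicate block) it was 4.64 (exact permutation p = 1). Replicate 1 exceeded replicate 2 for both receptors, and nothing in the labels says that a number marks a shared culture.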
